A study of Mus musculus with 2 samples.

Results

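The costimulatory and checkpoint receptor genes Icos, Cd28, Ctla4, Pdcd1, Tnfrsf4, Tnfrsf18, Tnfrsf9, Klrg1 and Tigit were examined for H3K4me3 in lung group 2 innate lymphoid cells (ILC2s). These 9 genes, chosen by symbol, are 9 of 21951 protein-coding genes of the GENCODE annotation of the mouse genome build GRCm38. A peak was assigned to a gene when it overlapped the gene body or lay within 1000 bp of any annotated transcript start, and in the latter case it is called a start peak. The mark was measured by CATCH-seq, in which unfixed chromatin from a small sample is digested with micrococcal nuclease and immunoprecipitated with the help of carrier DNA, on about 3000 sorted ILC2s per library. The offspring were 8 weeks old and of the C57BL/6J strain, with 1 library from offspring of control mothers (PBS library) and 1 from those of asthmatic mothers (OVA library). The control mothers were injected with alum and then received PBS intranasally during pregnancy, and the asthmatic mothers were injected with ovalbumin (OVA) in alum and then received OVA intranasally. Fathers were untreated, the labels name no treatment of the offspring themselves, and the experiment was done once with a single pregnant dam per group. The number of offspring pooled in each library is not given in the sources used here. With 1 library per group, no value has a replicate and the groups could not be tested against each other, and the dam, the library and the treatment cannot be told apart.

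H3K4me3 is a histone mark that sits at the transcript starts of active genes and of genes held ready for transcription, and it is usually strongest at CpG-rich promoters. ICOS, CD28, CTLA-4, PD-1 and TIGIT are receptors of the immunoglobulin superfamily, OX40 (Tnfrsf4), GITR (Tnfrsf18) and 4-1BB (Tnfrsf9) belong to the TNF receptor superfamily, and KLRG1 is a lectin-like receptor. CD28, ICOS and the TNF receptor family members enhance lymphocyte activation and survival, while CTLA-4, PD-1, TIGIT and KLRG1 restrain it. In ILC2s, ICOS is known for supporting survival and cytokine production, PD-1 for restraining them, and KLRG1 as a marker of mature or activated cells.

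The PBS library had 42126 listed peaks (median width 315 bp) and the OVA library 51610 (median width 249 bp). From the deposited fold and −log10 p of each peak, the number of DNA fragments at its summit was derived, with medians of 21 and 18 fragments over 2000 peaks sampled from each list. At the smallest background, 9 fragments were needed to reach the lowest −log10 p of the PBS library and 8 in the OVA library. Folds, −log10 p and −log10 q are the authors' values and are not scaled between the libraries, so each peak is given its percentile by −log10 q within its own list (100% being the highest). A peak below the caller's threshold is not listed, so a gene without a peak is unlisted rather than shown to lack the mark. All intervals are exact 95% intervals (Clopper-Pearson for shares, Poisson for fragments) and cover counting error only.

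The cell type of the label was checked with 14 ILC2 marker genes. A start peak was listed at 12 of them in the PBS library and at 9 in the OVA library, against 51.0% and 42.0% of all protein-coding genes, among them Il1rl1, the IL-33 receptor, and Rora. Gata3, Il5 and Il7r had one in the PBS library alone, and Il13 and Ptgdr2 in neither. Of 28 markers of T cells, B cells, NK cells and ILC1s, macrophages and epithelial cells, 4 had a start peak in the PBS library (Lat, Eomes, Epcam and Cdh1) and 1 in the OVA library (Lat, an adaptor of the T cell receptor). The defining T cell genes Cd3d, Cd3e, Cd3g, Cd4 and Cd8a had no peak in either list. Of the epithelial markers, Epcam reached the 85.6th percentile and Cdh1 the 60.7th in the PBS library, and Sftpc, Krt8 and Krt18 were unlisted in both. Cdh1 is also one of the ligand genes below, and the part of other cells in the results was not tested.

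Of the 9 receptor genes, 5 had a peak at the gene in the PBS library (Cd28, Icos, Pdcd1, Tnfrsf18 and Tnfrsf9) and 3 in the OVA library (Cd28, Icos and Tnfrsf18). Over all protein-coding genes, 58.2% had such a peak in the PBS library (interval 57.5 to 58.8%) and 51.9% in the OVA library (51.2 to 52.5%). A start peak was listed at 3 receptor genes in the PBS library (Pdcd1, Tnfrsf18 and Tnfrsf9), against 51.0% of all genes (50.4 to 51.7%). The OVA library had one at Tnfrsf18 alone, 1 gene of 9, against 42.0% of all genes (41.3 to 42.7%). Pdcd1 and Tnfrsf9 had a start peak in the PBS library only, which 9.73% of all genes had. The reverse, a start peak in the OVA library only, held for 0.711% of all genes and for none of the 9. Ctla4, Tnfrsf4, Klrg1 and Tigit were unlisted in both. Thus Tnfrsf18 was the single receptor gene of the 9 with a start peak in both lists. With a −log10 q of at least 5, 4 and 2 of the 9 had a peak at the gene in the PBS and OVA libraries (56.3% and 47.1% of all genes), since the Cd28 peak of the PBS library and the Icos peak of the OVA library are below that, and Tnfrsf18 alone then had one in both.

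**Figure D1:**
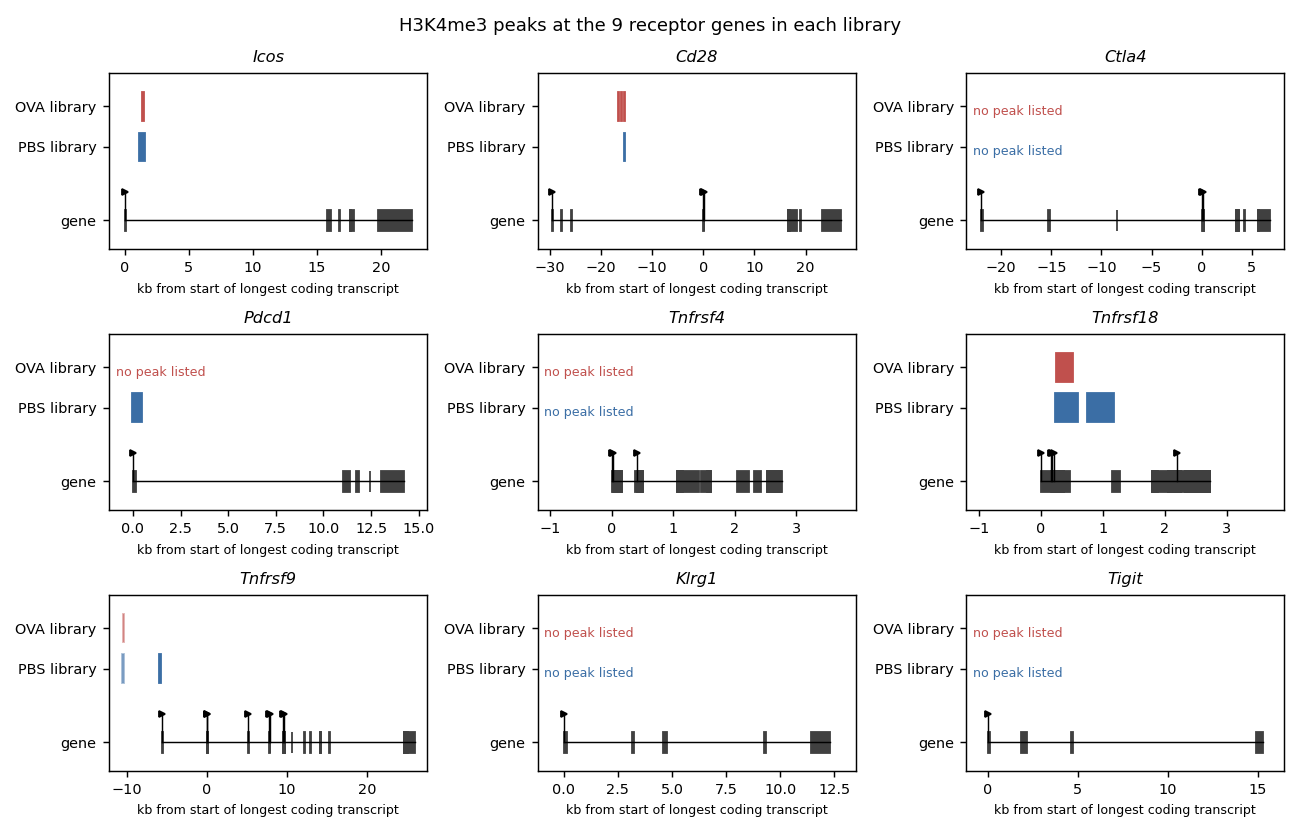
Maps of the 9 receptor genes, drawn 5′ to 3′, with the distance in kb from the start of the longest protein-coding transcript on the horizontal axis. Dark boxes are exons, arrows are annotated starts, blue boxes are peaks of the PBS library and red boxes those of the OVA library (pale boxes near Tnfrsf9 lie outside the assignment rule). Start peaks are seen at Pdcd1 and Tnfrsf18, upstream of the first start of Tnfrsf9, and at none of Ctla4, Tnfrsf4, Klrg1 and Tigit.

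Reference sequences at or beside places where the lists differ or meet, and at a start without a peak, are shown first. They are given on GRCm38 and 5′ to 3′ along the strand of the receptor gene, with CpG dinucleotides in capitals. The Tnfrsf18 stretch is the start peak of the OVA library, which lies wholly within a peak of the other list. The Pdcd1 stretch is the sequence just upstream of the start with a peak in 1 list, and that peak covered only the 42 bases nearest to the start. The Tnfrsf9 stretch lies between the 5′ ends of Tnfrsf9 and its divergent neighbour Park7, just beyond the peak of the PBS library, and holds no base of a peak. The Icos stretch is the part of intron 1 that carried a peak in both lists. The Ctla4 stretch is the upstream sequence of the member with the most CpGs in its start window, where no peak was listed.
Tnfrsf18, chr4:156026410-156026684, plus strand: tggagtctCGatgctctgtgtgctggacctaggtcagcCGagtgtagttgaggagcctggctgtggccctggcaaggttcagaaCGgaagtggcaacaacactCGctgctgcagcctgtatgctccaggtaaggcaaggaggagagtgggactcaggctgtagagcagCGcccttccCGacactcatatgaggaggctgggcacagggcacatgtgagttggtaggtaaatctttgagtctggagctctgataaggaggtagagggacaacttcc
Pdcd1, chr1:94052554-94052753, minus strand: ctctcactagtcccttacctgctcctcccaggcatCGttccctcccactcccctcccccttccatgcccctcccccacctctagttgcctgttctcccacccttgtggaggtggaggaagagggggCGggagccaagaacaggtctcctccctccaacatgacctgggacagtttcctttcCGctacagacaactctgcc
Tnfrsf9, chr4:150914438-150914561, plus strand: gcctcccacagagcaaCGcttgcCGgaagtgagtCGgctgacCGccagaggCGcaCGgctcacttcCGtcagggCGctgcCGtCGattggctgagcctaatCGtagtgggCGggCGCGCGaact
Icos, chr1:60979245-60979414, plus strand: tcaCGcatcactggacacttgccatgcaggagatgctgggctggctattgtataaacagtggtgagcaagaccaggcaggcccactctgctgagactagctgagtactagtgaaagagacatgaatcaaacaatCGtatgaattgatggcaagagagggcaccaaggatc
Ctla4, chr1:60908825-60909024, plus strand: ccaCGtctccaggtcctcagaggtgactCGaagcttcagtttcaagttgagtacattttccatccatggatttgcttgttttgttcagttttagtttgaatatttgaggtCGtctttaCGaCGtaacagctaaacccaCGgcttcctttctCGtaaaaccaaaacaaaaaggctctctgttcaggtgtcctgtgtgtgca
The Tnfrsf18 stretch of 275 bases held 6 CpGs, the Pdcd1 stretch of 200 bases 3, the Icos stretch of 170 bases 2 and the Ctla4 stretch of 200 bases 7. The 124 bases between Park7 and Tnfrsf9 held 15 CpGs and had a GC content of 66.9%, above the 61.0% of the Pdcd1 stretch and the 56.4% of the Tnfrsf18 stretch.

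Pdcd1, the gene for the inhibitory receptor PD-1 (ENSMUSG00000026285.7), lies on the minus strand of chromosome 1, from 94038305 to 94052553, and has a single annotated transcript. In the PBS library, a peak of 525 bp from 94052071 to 94052595 covered the start and exon 1, reaching 42 bp upstream of the start and 482 bp into the gene. Its summit lay 84 bp downstream of the start. It was at the 72.1st percentile of its list (fold 6.07, −log10 p 14.1, −log10 q 10.9). By width it was at the 80.4th percentile. Its summit held 24 derived fragments (interval 15.4 to 35.7) over a background of 3.12. This was the highest-ranked peak at any of the 9 genes in that list, and the 75 bases around its summit had no further exact copy in the genome.

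The OVA library had no listed peak at Pdcd1, and its nearest, from 94068860 to 94069365, lay 16307 bp from the start. That peak was wholly repeat-masked, and the 75 bases around its summit had 6544 further exact copies in the genome. Among 782 start peaks of the PBS library whose −log10 q differed from that of the Pdcd1 peak by at most 0.5, 26.7% (interval 23.7 to 30.0%) overlapped no peak of the other list. At the level of this peak, most start peaks were therefore listed in both, and Pdcd1 belonged to the smaller part. The genes nearest to Pdcd1 (Neu4, Gal3st2c and Gal3st2b) had no peak in either list, so the Pdcd1 peak stood alone among them.

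Tnfrsf18, which encodes GITR (ENSMUSG00000041954.18), lies on the plus strand of chromosome 4, from 156026164 to 156028895, with 5 annotated starts. In the PBS library it carried a pair of peaks. The first, of 369 bp from 156026394 to 156026762, lay 16 bp from the nearest start (156026378), at the 69.3rd percentile (fold 5.33, −log10 q 10.5). The second, of 425 bp from 156026917 to 156027341, was at the 29.3rd percentile (fold 4.11, −log10 q 6.11) and overlapped no peak of the other list. The first therefore ranked well above the second, although it was the narrower.

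The OVA library listed 1 peak at Tnfrsf18, of 275 bp from 156026410 to 156026684, at the 59.4th percentile (fold 5.64, −log10 p 10.9, −log10 q 7.83). All of its 275 bases lay within the first peak of the other list. Its summit held 18 derived fragments (10.7 to 28.4) over a background of 2.37, against 27 (17.8 to 39.3) over 4.26 for the first peak of the PBS library, so that the counting intervals overlapped. The first peak of the PBS library and the peak of the OVA library also overlap an exon of the gene Gm16008. Tnfrsf18 was the only annotated gene with a start within 1000 bp of either peak. The peaks were free of repeat-masked bases, and the 75 bases around each summit had no further exact copy.

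Start peaks covered 794 bp at Tnfrsf18 in the PBS library and 275 bp in the OVA library, a ratio of 0.346. Over the 9064 protein-coding genes with a start peak in both lists, the median ratio was 0.627 (quartiles 0.460 and 0.786), with median coverage of 685 and 403 bp, and 94.6% covered fewer bases in the OVA library. A narrower start peak at Tnfrsf18 was thus the common direction, and its ratio was below the lower quartile. Of 770 start peaks of the PBS library within 0.5 of the second Tnfrsf18 peak in −log10 q, 67.1% (63.7 to 70.5%) overlapped no peak of the other list, and of 794 like the first, 29.1% (26.0 to 32.4%) overlapped none. When only peaks within 500 bp of a start were counted, the second peak was left out and the ratio was 0.745.

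Tnfrsf4, which encodes OX40 (ENSMUSG00000029075.6), ends 9551 bp upstream of Tnfrsf18 on the same strand, from 156013843 to 156016612. It had no peak in either list. The nearest peaks were those of Tnfrsf18, at 12145 and 12161 bp in the PBS and OVA libraries. Within this pair of TNF receptor genes, the peaks thus lay at Tnfrsf18 alone. Sdf4 and B3galt6, near the pair, shared start peaks that covered 819 and 495 bp in the PBS and OVA libraries, while Ttll10 had none.

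Tnfrsf9, which encodes 4-1BB (ENSMUSG00000028965.13), lies on the plus strand of chromosome 4, from 150914562 to 150946102, and has 8 annotated starts. In the PBS library, a peak of 275 bp from 150914163 to 150914437 lay 125 bp upstream of the first of them, at the 46.1st percentile (fold 5.27, −log10 q 7.41). Its summit held 18 derived fragments (10.7 to 28.4) over a background of 2.60. The peak ended at the 5′ end of Park7, a gene for an oxidative stress response protein that is transcribed the other way, overlapped exons of Park7 and overlapped no exon of Tnfrsf9. It was therefore a start peak of both genes by position, and the mark cannot be assigned to either. The longest protein-coding transcript of Tnfrsf9 starts further downstream, at 150920155, and no peak was listed within 1000 bp of that start.

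No peak of the OVA library lay within the Tnfrsf9 gene or 1000 bp of its starts. Of 766 start peaks of the PBS library with a similar −log10 q (within 0.5), 58.5% (54.9 to 62.0%) overlapped no peak of the other list, so at this level most start peaks had no counterpart. Outside the rule, both lists had a peak in Park7 more than 4 kb upstream of Tnfrsf9. It spanned 150909559 to 150909831 in the PBS library (−log10 q 14.8, 85.8th percentile) and 150909647 to 150909845 in the OVA library (−log10 q 11.0, 82.0th percentile). Start peaks of Park7 covered 548 and 199 bp in the PBS and OVA libraries, and these are the same peaks. In the PBS library they were the peak more than 4 kb upstream and the start peak of Tnfrsf9. In the OVA library the peak more than 4 kb upstream was the only one, and none was listed at the 5′ end of Park7. The other flanking genes, Camta1 and Errfi1, also had start peaks in both, over 1003 and 239 bp at Camta1 and over 432 and 535 bp at Errfi1, which was the wider in the OVA library.

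Icos, the gene for the inducible costimulator (ENSMUSG00000026009.14), lies on the plus strand of chromosome 1, from 60977927 to 61000320. In both lists a peak lay in intron 1, just beyond the limit for a start peak. In the PBS library it ran over 406 bp from 60979068 to 60979473, 1141 bp downstream of the start, at the 35.4th percentile (fold 4.73, −log10 q 6.46). The OVA library had it over 170 bp from 60979245 to 60979414, 1318 bp downstream, at percentile 4.32 (fold 4.29, −log10 q 3.62). All 170 bases lay within the wider peak of the other list. The summits lay 1390 and 1399 bp from the start, almost at the same place, with 18 (10.7 to 28.4) and 10 (4.80 to 18.4) derived fragments, whose intervals overlapped. The sequence around these summits had no further copy in the genome, and the start of Icos itself was unlisted in both. When the distance allowed was 2000 bp, Icos was counted with a start peak in each list, and 52.2% of all genes then had one in the PBS library and 43.8% in the OVA library.

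Cd28 (ENSMUSG00000026012.2) and Ctla4 (ENSMUSG00000026011.13) lie upstream of Icos on the same strand, from 60716800 to 60773359 and from 60887000 to 60915832. The 3 genes lie within 283521 bp. Cd28 encodes the main costimulatory receptor of T cells, and its peaks lay in an intron, away from every annotated start. In the PBS library, 1 peak of 218 bp from 60730798 to 60731015 was at percentile 1.68 (fold 2.61, −log10 q 3.38) and lay 13998 bp from the nearest start. The OVA library had 3 peaks of 207, 275 and 243 bp between 60729590 and 60730984, at percentiles 38.0, 9.81 and 46.1. The last of these shared 187 bases with the peak of the PBS library. All 4 peaks were 100% repeat-masked, and the 75 bases around their summits had 482 to 1015 further exact copies in the genome, so reads there cannot be placed with certainty.

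The derived summits at Cd28 held 26 fragments in the PBS library and 31, 26 and 30 in the OVA library, over backgrounds of 9.33 and of 8.64, 8.10 and 7.60. These backgrounds were above the 1.57 to 4.35 found at the peaks of the other receptor genes. Of the 3 members with peaks in both lists, only Cd28 had a peak at a higher percentile by −log10 q in the OVA list than in the PBS list. The order for Tnfrsf18 turned with the measure, since by fold it was at percentile 54.3 in the PBS list and 60.2 in the OVA list, and among the best start peaks of genes at 27.5 and 48.9. Cd28 was also the only one of the 5 members with a peak whose peaks lay wholly in repeats. Ctla4, the gene for the inhibitory counterpart of CD28, had no peak in either list, and the nearest was that of Icos, 69897 and 70074 bp away in the PBS and OVA libraries. Of the genes flanking this cluster, Raph1 and Abi2 had start peaks in both lists and Cyp20a1 in the PBS library only.

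**Figure D2:**
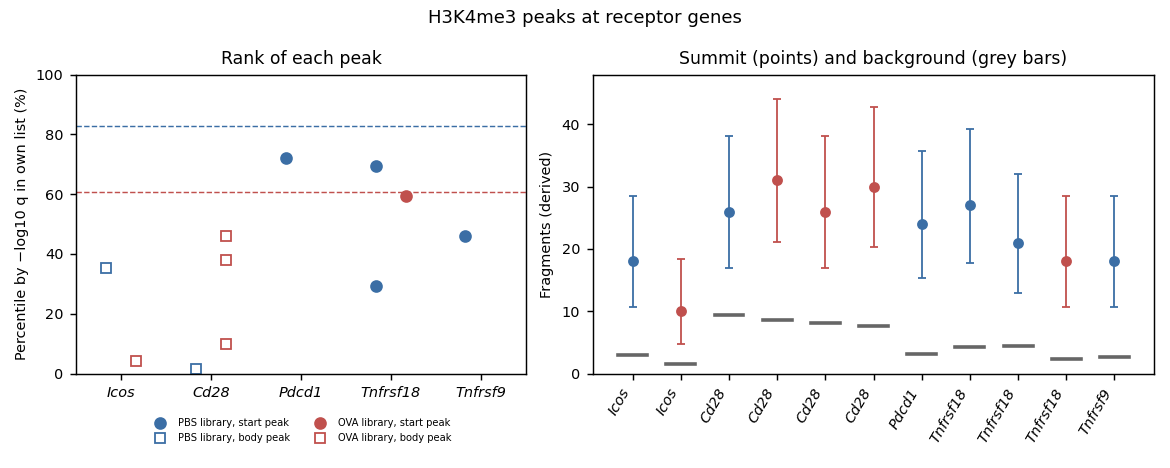
Left, the percentile by −log10 q within its own list of each peak at a receptor gene (filled circles, start peaks; open squares, peaks in the gene body), with dashed lines at the medians over all genes with a start peak (82.7% in the PBS library, 60.7% in the OVA library). Right, the derived number of fragments at each summit with its exact Poisson 95% interval and, as grey bars, the background (blue, the PBS library; red, the OVA library). All member peaks lie below the median line of their own list, and the Cd28 peaks have the highest backgrounds.

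The median percentile of the best start peak was 69.3 over the 3 receptor genes with one in the PBS library, against 82.7 over all genes with a start peak. Tnfrsf18 was at 59.4 in the OVA library, against a median of 60.7. The highest of the 9 genes in the PBS library, Pdcd1 at 72.1, thus lay below the median gene of that list. Ranked among the best start peaks of genes in the PBS list, Pdcd1 was at percentile 30.7, Tnfrsf18 at 27.5 and Tnfrsf9 at 11.9. With each list limited to its 10000 strongest peaks by −log10 p, none of the 9 genes had a peak, against 35.3% of all genes in the PBS library and 15.6% in the OVA library.

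Klrg1 (ENSMUSG00000030114.8), on the minus strand of chromosome 6 from 122270596 to 122282882, encodes a receptor for cadherins. No peak was listed at the gene in either list. The nearest in the PBS library, 14622 bp upstream of its start, covered 312 bp from 122297504 to 122297815 (−log10 q 10.5, 69.2nd percentile). The OVA library had an overlapping peak of 284 bp from 122297575 to 122297858, 14693 bp upstream (−log10 q 5.17, 22.2nd percentile). This place had no protein-coding start within 1000 bp, and the sequence around its summits had no further copy. The flanking genes M6pr and Phc1 had start peaks in both lists, and Rimklb in the PBS library only.

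Tigit (ENSMUSG00000071552.5), on the minus strand of chromosome 16 from 43648867 to 43664146, encodes a receptor for PVR. It had no peak in either list. The nearest lay at 41183 and 41147 bp in the PBS and OVA libraries, wholly in repeats with 330 further exact copies of the summit sequence. Of its flanking genes, Zbtb20 and Qtrt2 had start peaks in both lists and Drd3 in neither. Over all 18 flanking genes of the 9 receptors, 13 had a start peak in the PBS library and 11 in the OVA library, against 51.0% and 42.0% of all genes, with Sdf4 and B3galt6 counted separately although they share their peaks.

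A feature shared by the 9 genes, which was not used to choose them, was a low number of CpGs at the start of the longest protein-coding transcript. In the 300 bases from 250 before to 50 after that start, they held 4 to 8 CpGs with a median of 5, against a median of 12 over 21938 genes. Cd28, Tnfrsf9 and Tnfrsf18 had 4, Icos, Pdcd1 and Tigit 5, Klrg1 6, Tnfrsf4 7 and Ctla4 8. Of the 9203 genes with at most 8 CpGs, 16.2% had a start peak in the PBS library (15.5 to 17.0%) and 12.5% in the OVA library (11.9 to 13.2%), and 4.49% had one in the PBS library only. In the PBS library, 3 of 9 receptor genes was a larger share than among genes with as few CpGs. In the OVA library, 1 of 9 was a similar share, and with 9 genes a single gene decides such a comparison. The peak counted for Tnfrsf9 in the PBS library lay away from the start at which its CpGs were counted. For this gene the CpG number therefore does not describe the place of the peak. The order within the members did not follow CpG number, since Tnfrsf18 and Pdcd1 had fewer CpGs than Tnfrsf4, Klrg1 and Ctla4. The peak near Tnfrsf9 held 24 CpGs, while the window of the longest protein-coding Tnfrsf9 transcript held 4. The low number therefore does not hold at the first annotated start of Tnfrsf9, where the 124 bases upstream held 15 CpGs.

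**Figure D3:**
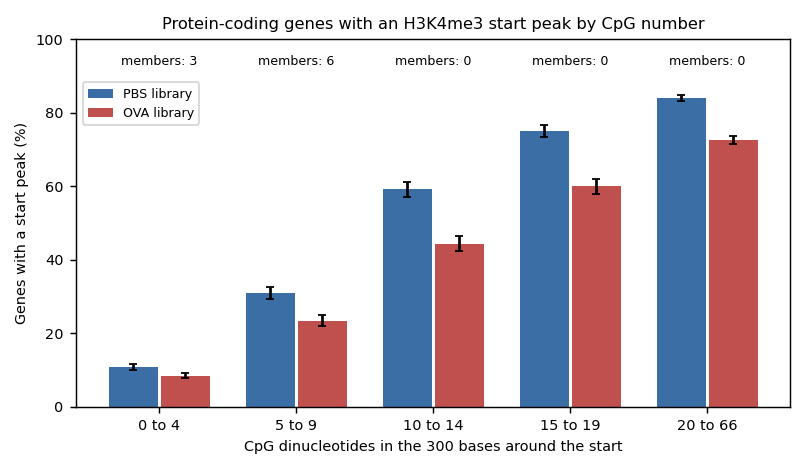
Share of protein-coding genes with a start peak (vertical axis, %) in the PBS library (blue) and the OVA library (red), with exact 95% intervals. The horizontal axis is the number of CpGs in the 300 bases around the start of the longest protein-coding transcript. The share goes from 10.8 and 8.42% with 0 to 4 CpGs to 84.1 and 72.6% with 20 to 66 CpGs, and the 9 receptor genes all lie in the lowest pair of classes (3 and 6 genes).

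Short motifs were searched on both strands of the same 300-base windows. The GATA motif AGATAA occurred in 9.82% of all windows and, among the members, at Cd28. The AP-1 motif TGANTCA occurred in 6.66% of all windows and, among the members, at Klrg1. The glucocorticoid receptor hexamer AGAACA was found in 16.3% of all windows and at Klrg1 and Pdcd1, with 2 matches each. The Runx motif TGTGGT was found in 14.9% and at Cd28, Icos and Tigit, and the TATA box TATAAA in 12.4% and at Ctla4, Klrg1 and Tnfrsf18. Tnfrsf4 and Tnfrsf9 held none of these letters in their windows. Each match is a description of the sequence alone.

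Other genes of the same pathways were set beside the receptors. Of 44 such genes, 27 had a start peak in the PBS library (61.4%, against 51.0% of all genes) and 17 in the OVA library (38.6%, against 42.0%). All 17 had one in both lists. A start peak in the PBS library only was listed at 10 of the 44, a larger share than the 9.73% of all genes given above, and this difference was not tested. Of the 17, 16 covered fewer bases in the OVA library, with a median ratio of 0.451, beside the 94.6% and the median ratio of 0.627 over all genes with a start peak in both lists.

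Of 12 ligand genes, 6 and 3 had a start peak in the PBS and OVA libraries, against the same 51.0% and 42.0%. Icosl, the ligand of ICOS, was covered over 968 bp in the PBS library and 336 bp in the OVA library, although Icos had no start peak in either. Cdh2, a cadherin bound by KLRG1, was covered over 985 and 215 bp. Tnfsf9, the ligand of 4-1BB, over 629 bp, Cd274, which encodes PD-L1, and Cdh1, another KLRG1 ligand, had a start peak in the PBS library only. Tnfsf4 and Tnfsf18, the ligands of OX40 and GITR, and Cd80 and Cd86, the ligands of CD28 and CTLA-4, had none in either list. Pdcd1lg2, which encodes the other PD-1 ligand PD-L2, also had none.

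Of 17 other receptors, 6 (35.3%) had a start peak in the PBS library and 3 (17.6%) in the OVA library, beside 3 and 1 of the 9 members and 51.0% and 42.0% of all genes. Tnfrsf25, which encodes the receptor DR3 of the cytokine TL1A, was the most widely covered of them, with 1453 and 892 bp in the PBS and OVA libraries. Kit, the stem cell factor receptor, was covered over 942 and 344 bp. Vsir, which encodes the checkpoint molecule VISTA, over 595 bp, Cd226, the activating receptor that competes with TIGIT for PVR, and Cd200r1 had a start peak in the PBS library only. The other 11, among them Lag3, Havcr2 and Btla, had none.

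All 15 genes for signal transducers had a start peak in the PBS library and 11 in the OVA library, against 51.0% and 42.0% of all genes, and their difference from the receptors was not tested. Pik3r1 and Pik3cd, the regulatory and catalytic subunits of phosphoinositide 3-kinase acting below CD28 and ICOS, were covered over 1318 and 980 bp in the PBS library and over 960 and 442 bp in the OVA library. Inpp5d, which encodes the phosphatase SHIP-1, was covered over 1120 and 384 bp. Traf1, Traf3 and Map3k14, adaptors and a kinase acting below the TNF receptor family, and Ptpn6, which encodes the phosphatase SHP-1, had one in the PBS library only.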

How the data were processed

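The 2 H3K4me3 CATCH-seq libraries of lung ILC2s, 1 per group, were grouped by the treatment label. The authors trimmed the paired reads (Trim Galore, Cutadapt), aligned them to GRCm38 with Bowtie 2, removed duplicates with Sambamba and deposited 1 peak list per library. The peak caller, its threshold, the use of the input as control and the handling of reads with several matches are not given in the sources used here, and according to the study's reporting summary no peak calling was done. The deposited lists give a score for each peak, which was not analysed further, the authors' fold, a ratio of summit signal to background, and the authors' −log10 p and −log10 q. Total read depth is unknown.

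Peaks were assigned to GENCODE genes with the distance of 1000 bp, and sequences were read from the RefSeq genome of GRCm38, whose chromosome lengths held every peak. The promoter table from RefSeq matched 6 of the 9 genes, so windows were cut from the genome for all. Fragments at summits were solved from fold and −log10 p under a Poisson model with 1 added to signal and background, and all 2000 sampled peaks of each list were solved within 0.001. These numbers assume a call without control. Copies are exact matches of the 75 bases around a summit, and repeats are the masked bases of the genome.

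The members and lists were chosen with earlier results of these data known. Named were all members, pathway genes listed in 1 list only and the 3 widest of each pathway group, markers of other cell types with a start peak, and the 3 nearest protein-coding neighbours of each cluster. Other peak thresholds, distances, starts, domains, overlap rules, rankings and widths were tried as alternatives. The assignment and the solved fragments were tested on simulated data (500 of 500 windows and 400 of 400 summits recovered). Calculations were done in Python 3.11.15 (scipy 1.17.1, numpy 2.4.6, pandas 2.3.3; plots with matplotlib 3.10.9).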

Additional observations from a re-analysis of the deposited data

How the results depend on the processing

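The counts of members, other pathway genes and markers, the percentiles and the width ratio were recomputed under each alternative. Of these values 83 were taken as close (counts within 1.5 times, percentiles within their counting interval, the width ratio only if equal), 49 were not, and 7 could not be had. The median percentile of the members was 69.3 in the PBS library and 59.4 in the OVA library. With a −log10 q of at least 5 it was 63.4 and 50.3, with a distance of 2000 bp 57.7 and 31.9, with peaks joined to domains 64.5 and 53.9, ranked by fold 54.3 and 60.2, ranked by width 69.8 and 57.6, and ranked among the best start peaks of genes 27.5 and 48.9. With each list limited to its 10000 strongest peaks by −log10 p, the counts in the PBS and OVA libraries were 0 and 0 members with a peak at the gene, 0 and 0 with a start peak, 9 and 2 other pathway genes, 3 and 2 ILC2 markers and 2 and 0 markers of other cells, and no percentile or width ratio could be had. With 2000 bp, 2 members and 2 markers of other cells had a start peak in the OVA library, Icos being the member added, against 43.8% of all genes. The width ratio, 0.346 at Tnfrsf18, was 0.745 with 500 bp, since the second peak is then left out, 0.383 with 2000 bp, where Icos enters, 0.290 with domains, 0.647 with the widest peak alone and 0.422 with widths divided by the smallest of each list. Causes were otherwise not tested. No paired analysis was possible because each group had a single library, which also could not be left out. At the smallest background, 9 and 8 derived fragments were needed for a peak in the PBS and OVA libraries, and total read depth is unknown.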
